A study of Mus musculus with 9 samples.

Results

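The genes described here are the 8 amylase, pancreatic lipase and colipase genes Amy1, Amy2a2, Amy2a5, Pnlip, Pnliprp1, Pnliprp2, Cel and Clps, taken by gene symbol out of 23235 symbols in whole mouse pancreas at e15.5. All 8 were found, as 13 annotated loci, and all 8 passed the filter of at least 1 FPKM in at least 3 libraries. FPKM counts sequenced fragments per kilobase of transcript, scaled to the mapped fragments of the library, so levels are per length and can be set side by side between genes. RNA was sequenced from 3 Blinc1-/- (knockout), 3 Blinc1+/- (heterozygote) and 3 Blinc1+/+ (wild type) pancreas libraries, on a mixed background of C57BL/6 and 129Sv. Blinc1 encodes a long noncoding RNA and neighbours Nkx2-2, which encodes a transcription factor of islet cells, and the comparisons between genotypes ask whether its loss changes expression in the pancreas. The labels name no other allele or treatment. Whether each library is a different embryo is not stated, so the p-values cover the spread among these samples, which may be technical in part. Xist, given below, was high in some and low in other libraries of the heterozygotes and of the wild types, so neither group came from a single sample.

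Acinar cells make the enzymes that digest starch and fat and release them through the ducts into the gut. Alpha-amylase cuts starch, and in the mouse it is made from pancreatic genes (the Amy2 group) and from Amy1, which is known from salivary gland and liver. Pancreatic triglyceride lipase (Pnlip) cleaves dietary fat with the help of colipase (Clps), which anchors it to bile-coated fat droplets. Lipase-related protein 2 (Pnliprp2) also cleaves galactolipids and phospholipids, lipase-related protein 1 (Pnliprp1) has little known lipase activity, and carboxyl ester lipase (Cel) is activated by bile salts and cleaves cholesteryl esters among other lipids. In rodents Pnlip is known as a gene of later life, switched on around weaning, whereas Pnliprp1, Pnliprp2 and Cel are active earlier.

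The genes lie in 4 places. On mm9, Pnlip (chromosome 19, 58744855 to 58756278), Pnliprp1 (58803377 to 58818659) and Pnliprp2 (58834213 to 58852024) are neighbours on the plus strand. Cel (chromosome 2, 28411340 to 28418882) and Clps (chromosome 17, 28695159 to 28697659) lie apart on minus strands, and the amylases share a cluster on the minus strand of chromosome 3. All 8 are protein coding in the GENCODE annotation of the same assembly. The windows from 250 bases before to 50 bases after the annotated start are shown for 5 genes, because the 3 neighbouring lipase genes differed most in level and because Cel and Amy2a5 hold motif matches. The sequences are from RefSeq on GRCm38.p6, on the strand of the gene, and capitals mark a match to any of 3 motifs searched on both strands: CACCTG and TTTCCC, the letters of the E-box and TC-box bound by the acinar complex PTF1, and AAGGTCA, the letters bound by NR5A2.
Pnlip, chr19:58670115-58670414, plus strand: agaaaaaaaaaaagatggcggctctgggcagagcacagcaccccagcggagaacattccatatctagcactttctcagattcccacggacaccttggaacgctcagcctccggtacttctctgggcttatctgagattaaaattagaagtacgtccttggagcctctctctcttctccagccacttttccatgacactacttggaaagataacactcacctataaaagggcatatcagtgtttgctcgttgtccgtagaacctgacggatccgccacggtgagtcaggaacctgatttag
Pnliprp1, chr19:58728637-58728936, plus strand: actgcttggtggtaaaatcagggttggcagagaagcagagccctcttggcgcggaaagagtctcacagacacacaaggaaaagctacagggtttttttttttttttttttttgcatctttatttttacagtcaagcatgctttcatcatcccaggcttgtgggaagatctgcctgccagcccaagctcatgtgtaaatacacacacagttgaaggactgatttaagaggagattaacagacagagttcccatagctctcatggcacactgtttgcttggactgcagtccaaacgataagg
Pnliprp2, chr19:58759473-58759772, plus strand: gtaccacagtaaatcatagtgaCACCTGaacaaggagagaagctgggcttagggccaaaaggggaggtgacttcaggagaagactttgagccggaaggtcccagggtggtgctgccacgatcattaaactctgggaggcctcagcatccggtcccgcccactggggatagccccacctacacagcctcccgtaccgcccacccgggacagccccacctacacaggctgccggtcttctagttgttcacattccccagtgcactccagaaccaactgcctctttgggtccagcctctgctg
Cel, chr2:28563354-28563653, minus strand: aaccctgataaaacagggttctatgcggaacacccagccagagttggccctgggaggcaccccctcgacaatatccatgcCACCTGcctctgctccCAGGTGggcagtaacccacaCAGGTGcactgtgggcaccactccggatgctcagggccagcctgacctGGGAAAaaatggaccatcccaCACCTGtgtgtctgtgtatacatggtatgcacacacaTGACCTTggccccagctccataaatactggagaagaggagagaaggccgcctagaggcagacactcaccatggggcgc
Amy2a5, chr3:113258650-113258949, minus strand: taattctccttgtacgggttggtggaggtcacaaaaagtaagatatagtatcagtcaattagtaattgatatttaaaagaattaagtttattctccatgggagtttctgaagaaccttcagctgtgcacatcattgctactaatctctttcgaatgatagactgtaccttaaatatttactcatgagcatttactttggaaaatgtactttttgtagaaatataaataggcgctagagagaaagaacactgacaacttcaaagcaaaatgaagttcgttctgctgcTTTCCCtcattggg

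Windows were found for 7 of the 8 genes, all but Clps, with 2 for Amy1. Matches stood in 3 genes. Cel held 4 E-box matches, 1 TC-box match and 1 NR5A2 match, none of them overlapping. Pnliprp2 held 1 E-box match and Amy2a5 held 1 TC-box match, 37 bases into the transcript. Pnlip, Pnliprp1, Amy1 and Amy2a2 held none of these letters in their windows. The Amy2a2 window lies 138 bases further upstream than that of Amy2a5, and the 162 bases they share differ at 0 positions, so this contrast comes from the annotated starts. Of 32851 RefSeq windows of the same length, 20.21% held the E-box letters, 25.25% the TC-box letters and 4.72% the NR5A2 letters. A match is a description of these letters and not a binding site.

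Levels in the embryonic pancreas ran from 0.628 FPKM at the lowest to 24458 FPKM at the highest. Pnliprp1, the lipase-related gene with little known activity, was the 1st or 2nd most abundant transcript in each of the 7 libraries where it had an estimate. Clps ranked between 1 and 4 over the 9 libraries and Amy2a5 between 2 and 4 over 8. Ranks count only genes with an estimate, which Ctrb1, a more abundant chymotrypsinogen gene, lacked in 4 libraries. Pnliprp1 lacked one in knockout replicate 2 and heterozygote replicate 2, the libraries where Clps ranked 1. Amy2a5 lacked one in knockout replicate 2. Cel ranked between 11 and 26. At the other end, Pnlip, the main fat-digesting lipase of the adult, ranked between 11450 and 13842. Within a library, the level of Pnliprp1 was 12166 to 34810 times that of Pnlip and 267 to 448 times that of Pnliprp2, its neighbours on chromosome 19. The embryonic pancreas held abundant colipase RNA beside very little Pnlip RNA, a description of levels with no test.

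The order of the levels, from high to low, was Pnliprp1, Clps and Amy2a5 near each other, Cel, Amy2a2, Pnliprp2, Amy1 and Pnlip. Amy2a5 is here the sum of 4 near-identical loci, 3 of them with the status LOWDATA, and any single locus was below Clps. Clps and the Amy2a5 sum could not be ordered, because Amy2a5 was the higher of the pair in 3 of 8 libraries. Pnliprp1 was above Clps in 7 of 7 libraries with both values. Amy2a2, here the sum of 3 loci, was above Pnliprp2 in 8 of 8, by 1.63 to 2.47 times. Any single Amy2a2 locus with an estimate was below Pnliprp2 in the same library. Pnliprp2 was above Amy1 in 9 of 9.

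**Figure D1:**
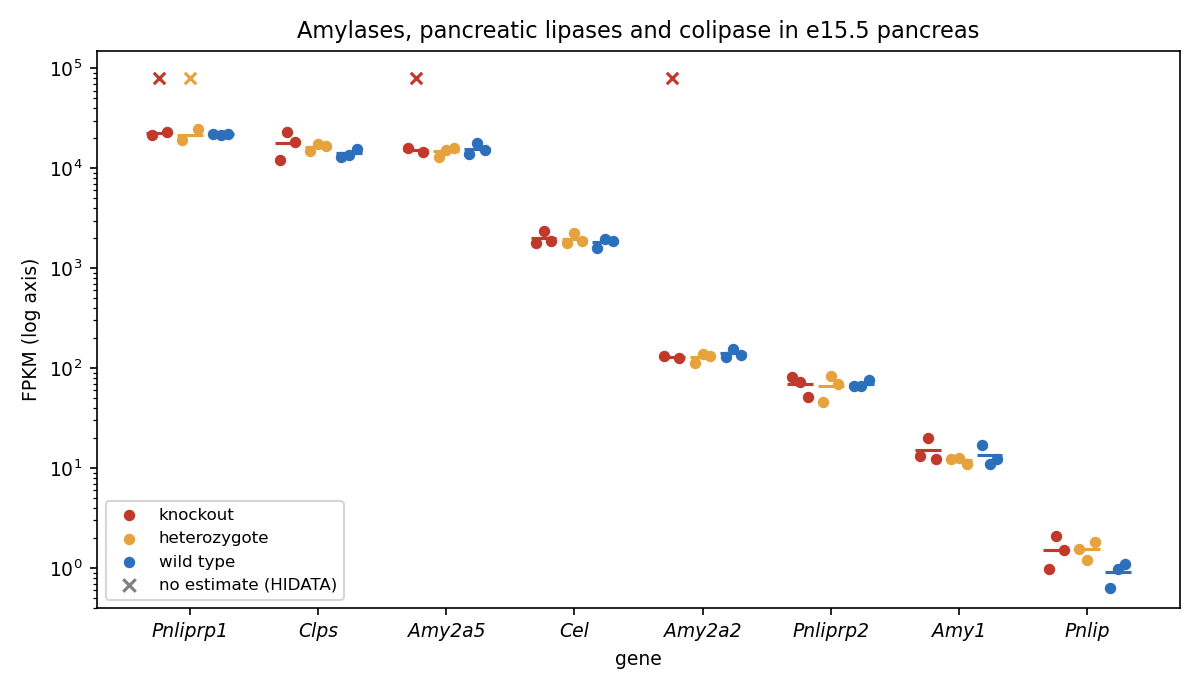
FPKM on a log axis for the 8 genes in knockout, heterozygote and wild-type libraries (points: libraries; horizontal lines: group means over the libraries with an estimate; crosses at the top: libraries marked HIDATA, which have no estimate and are not drawn to scale). Pnliprp1, Clps and Amy2a5 stand at 12218 FPKM or more in every library with an estimate and Pnlip between 0.628 and 2.07 FPKM, with the genotypes close together at each gene.

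Some of the highest values are absent from the deposited tables. The status HIDATA marks a locus whose fragments were too many for the quantifier to process. Its listed 0 stands for a missing high value. It fell on 5 estimates of these loci: Pnliprp1 in knockout replicate 2 and heterozygote replicate 2, and in knockout replicate 2 also 2 of the 4 loci of Amy2a5 and 1 of the 3 loci of Amy2a2. No wild-type library had such a locus among these genes. Depth was compared by the implied fragments behind 1 FPKM of Cel, which do not depend on the missing loci. They were 48.1 in knockout replicate 2, 47.6 in knockout replicate 1, 45.6 in heterozygote replicate 2 and 45.2 in wild-type replicate 1, the 4 deepest libraries. The libraries with missing loci among these genes were thus among the deepest. Knockout replicate 1 and wild-type replicate 1 had similar depth with no locus marked this way. Outside these genes, Ctrb1 was also marked HIDATA in knockout replicate 3 and heterozygote replicate 3, at 38.1 and 39.4 implied fragments. Estimates of Pnliprp1 rested on up to 798128 implied fragments, in knockout replicate 1. The missing values therefore fall on mutant libraries only, and group means of Pnliprp1, Amy2a5 and Amy2a2 leave them out.

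Facts of the whole series bear on how the genotype groups are read. Implied depth was 19532984 to 25437255 fragments per library, not counting loci with no estimate. Blinc1 was not analysed here under that name, so the genotype labels could not be checked on it. Nkx2-2 had 24.9, 6.08 and 5.48 FPKM in the knockout libraries in replicate order, 6.37, 19.0 and 13.4 FPKM in heterozygotes and 15.2, 21.7 and 25.5 FPKM in wild type, so knockout replicate 1 and heterozygote replicate 1 stood apart from the other libraries of their groups. Xist, which coats the inactive X in females, reached 35.0 to 40.2 FPKM in the 3 knockout libraries but a like level in only 1 heterozygote (40.3 FPKM) and 1 wild type (38.2 FPKM). It was at 0.0608 FPKM or less in the other 4 libraries. Acinar genes were abundant, as the tissue label has it: the 15 listed protease genes with an estimate in every library summed to 20845 to 33893 FPKM in knockouts, 23775 to 28908 in heterozygotes and 22774 to 23557 in wild types. On the log2 scale, 41.5% of all genes tested were higher in knockouts than in wild type (median -0.03). Differences between knockout and wild type were negative for all 9 mesenchyme, all 6 endothelial and all 6 immune markers (medians -0.36, -0.22 and -0.29). They were also negative for 8 of 10 endocrine (median -0.38), 5 of 6 liver (-0.32), 7 of 8 stress (-0.14) and 4 of 7 duct markers (-0.0020), and positive for 4 of 6 erythroid markers (0.06). No gene of these lists was called by limma, and their part in the enzyme levels was not tested. In these bulk samples, a difference in the share of acinar cells and a difference in RNA per acinar cell cannot be told apart.

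Pnliprp1 had estimates in 7 libraries. Its level was 21619.8 FPKM in knockout replicate 1 and 23047 FPKM in knockout replicate 3, with 19074 and 24458 FPKM in heterozygote replicates 1 and 3, and with 21857.5, 21635 and 22003 FPKM in wild type. The wild-type libraries lay close together, within the range of both mutant groups. The knockout mean was 22333 ± 1009 FPKM (SD, n = 2) and the wild-type mean 21832 ± 185 FPKM (SD, n = 3), a difference of 0.03 on the log2(FPKM + 1) scale (95% interval -0.33 to 0.40, limma adjusted p = 0.95). Knockout replicate 2 was dropped from this value, and heterozygote replicate 2 from the heterozygote mean of 21766 ± 3807 FPKM (SD, n = 2).

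Clps, the cofactor of pancreatic lipase, had an estimate in all 9 libraries. It was at 12218, 23337 and 18119.5 FPKM in knockouts, at 14814, 17547 and 16784 FPKM in heterozygotes and at 13017.5, 13728 and 15475 FPKM in wild type. Knockout replicate 2 was the highest of the 9 libraries and knockout replicate 1 the lowest, so the knockouts enclosed both other groups. The mean was 17892 ± 5563 FPKM in knockouts and 14073.5 ± 1264 FPKM in wild type (SD, n = 3 each). The log2 difference was 0.30 (95% interval -0.18 to 0.78, limma adjusted p = 0.64). It was 0.55 without knockout replicate 1 and 0.08 without knockout replicate 2, and neither passed the test.

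Cel, the bile-salt-activated lipase, was at 1799, 2385 and 1859 FPKM in knockouts. In heterozygotes it was at 1799.6, 2249 and 1879.95 FPKM, and in wild type at 1610.05, 1974 and 1871 FPKM. Replicate 2 was the highest library of each genotype, and the groups overlapped. The means were 2014 ± 322 FPKM in knockouts, 1976 ± 240 FPKM in heterozygotes and 1818 ± 188 FPKM in wild type (SD, n = 3 each). For knockout minus wild type the log2 difference was 0.14 (95% interval -0.16 to 0.44, limma adjusted p = 0.71).

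Pnliprp2, which cleaves galactolipids and phospholipids, differed more between libraries than between genotypes. It was at 80.9, 73.5 and 51.5 FPKM in knockouts, at 46.3, 82.8 and 68.9 FPKM in heterozygotes and at 67.0, 66.9 and 76.2 FPKM in wild type. The lowest libraries were heterozygote replicate 1 and knockout replicate 3, while the other 7 lay between 66.9 and 82.8 FPKM. The same libraries were the lowest at Zg16, a zymogen granule gene picked after its values were seen, with 22.9 FPKM in knockout replicate 3 and 16.8 FPKM in heterozygote replicate 1 against 37.6 to 75.6 FPKM in the other 7. Between knockout and wild type the log2 difference in Pnliprp2 was -0.05 (95% interval -0.53 to 0.43, limma adjusted p = 0.94).

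Pnlip itself rested on few fragments. It was at 0.988, 2.07 and 1.53 FPKM in knockouts, from 33.0, 70.0 and 41.0 implied fragments. It was at 1.57, 1.22 and 1.84 FPKM in heterozygotes, from 42.0, 38.0 and 51.0 fragments, and at 0.628, 0.985 and 1.10 FPKM in wild type, from 20.0, 28.0 and 34.0 fragments. Every heterozygote library lay above every wild-type library, and knockout replicates 2 and 3 did so too, while knockout replicate 1 lay inside the wild-type range. The deposited confidence bounds of the nearest libraries overlap, at 0.822 to 1.61 FPKM in heterozygote replicate 2 and 0.722 to 1.48 FPKM in wild-type replicate 3. The log2(FPKM + 1) difference from wild type was 0.40 in knockouts (SE 0.18, limma unadjusted p = 0.054, adjusted p = 0.58) and 0.42 in heterozygotes (SE 0.18, limma unadjusted p = 0.044, adjusted p = 0.94). With a pseudocount of 0.1 in place of 1, which understates low genes less, these differences were 0.67 and 0.72 and again did not pass (limma adjusted p = 0.58 and 0.95). Pnlip was above 1 FPKM, and so met the level filter, in all 3 heterozygotes, in knockout replicates 2 and 3 and in wild-type replicate 3.

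The amylase cluster is a set of near-identical copies, which limits what short reads can assign. Amy2a5 is listed at 4 loci (mm9 chromosome 3, 113052096 to 113061617, 113084763 to 113094229, 113117375 to 113126832 and 113149975 to 113159438). Amy2a2 is listed at 3 loci (113082755 to 113094367, 113115367 to 113126970 and 113147967 to 113159576), each enclosing the 2nd, 3rd or 4th of the Amy2a5 loci. In GENCODE the 1717-base transcripts at the 4 copies are named Amy2a5, Amy2a4, Amy2a3 and Amy2a2, and they differ at 0 bases. Reads of these copies, and of Amy2a2 and Amy2a5 as listed, can therefore not be told apart except by the ends of the longer Amy2a2 loci, and the split between them is uncertain. Amy1 (113258870 to 113280668) shares 89.91% of aligned coding bases with Amy2a5, so some of its reads may also be shared.

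Each Amy2a5 locus alone was among the abundant transcripts, at 3068 to 5326 FPKM. The estimates at the 2nd, 3rd and 4th loci carry the status LOWDATA, with lower confidence bounds of 0. In knockout replicate 2, the 2 estimated loci were at 5326 and 5188 FPKM, above the same loci in all other libraries, which reached 4412 and 4330 FPKM in wild-type replicate 2. Summed over all 4 loci, Amy2a5 had 15865 FPKM in knockout replicate 1 and 14614 FPKM in knockout replicate 3. Heterozygotes had sums of 13119.6, 15385 and 16034 FPKM, and wild types 14029.5, 18081 and 15187 FPKM. The groups overlapped, and the log2 difference between knockout and wild type was -0.04 (95% interval -0.40 to 0.31, limma adjusted p = 0.93), with knockout replicate 2 dropped.

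The sign differed on the loci that keep knockout replicate 2. The 2nd and 3rd loci, which have an estimate in all 9 libraries, summed to 7703, 10514 and 7082 FPKM in knockouts, to 6194, 7471 and 7753 FPKM in heterozygotes and to 6813, 8742 and 7381 FPKM in wild type. Knockout replicate 2 was the highest library, at 1.20 times the next. On these loci, chosen after the data were seen, the knockout minus wild type difference was 0.13 (95% interval -0.25 to 0.50, limma adjusted p = 0.80), so neither sign was distinguishable from the spread between libraries. Both loci carry the status LOWDATA in every library. The 1st locus, with the status OK wherever it has an estimate, is left out of this difference.

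**Figure D2:**
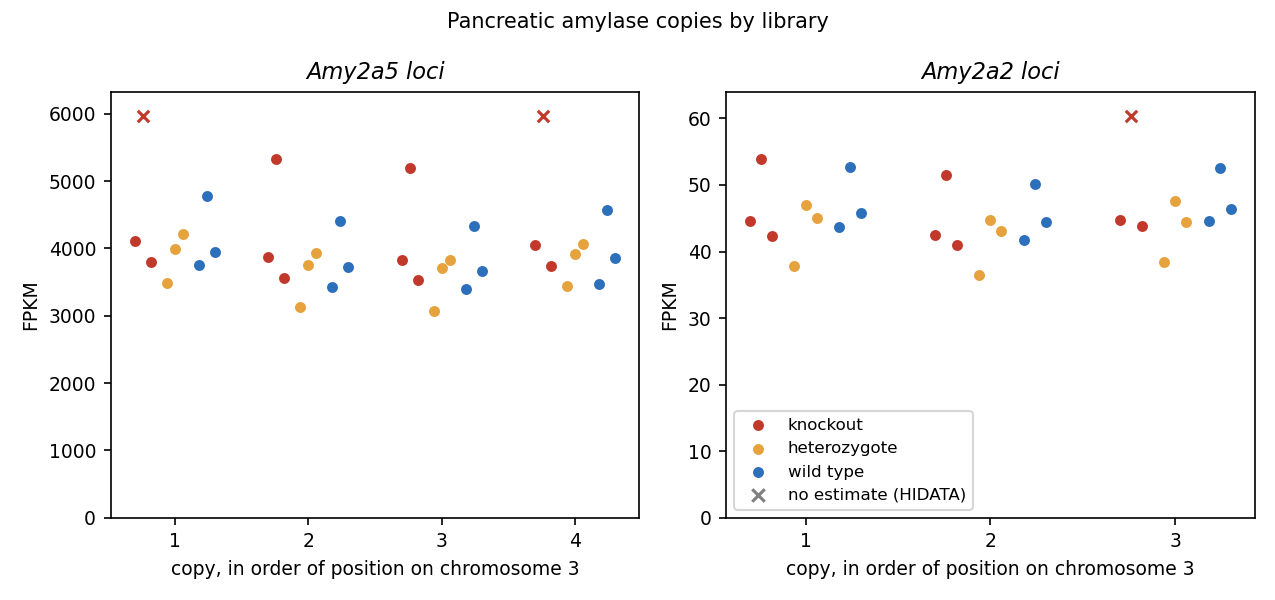
FPKM of each Amy2a5 locus (left) and Amy2a2 locus (right), by copy in order of position on chromosome 3, for knockout, heterozygote and wild-type libraries (points: libraries; crosses: libraries marked HIDATA, with no estimate and not drawn to scale). Knockout replicate 2 is the highest library at the 2nd and 3rd Amy2a5 loci, with 5326 and 5188 FPKM.

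Amy2a2 as listed was lower than Amy2a5 by 108 to 121 times in every library with both values. The split of reads between these overlapping loci is uncertain, so this ratio may not be a difference between genes. In knockout replicate 1, the 2nd Amy2a5 locus had 3879 FPKM from 2842 implied fragments. The Amy2a2 locus that encloses it had 44.6 FPKM from 2926. Its sum over 3 loci was 132 and 127 FPKM in knockout replicates 1 and 3, 113, 139 and 132 FPKM in heterozygotes and 129.9, 155 and 137 FPKM in wild type. The ranges of knockouts and wild types overlapped, with knockout replicate 2 missing. The log2 difference was -0.11 between knockout and wild type (95% interval -0.35 to 0.12, limma adjusted p = 0.71) and -0.02 on the 2 loci with all values (adjusted p = 0.96).

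Amy1, the amylase known from salivary gland and liver, was at 13.2, 20.0 and 12.4 FPKM in knockouts, at 12.3, 12.5 and 11.1 FPKM in heterozygotes and at 17.2, 10.9 and 12.5 FPKM in wild type. Knockout replicate 2 and wild-type replicate 1 stood above the other 7 libraries, which were at 10.9 to 13.2 FPKM. Amy2b, an amylase locus at the other end of the cluster that GENCODE lists as a pseudogene, showed the same pair on top, with 1691 FPKM in knockout replicate 2 and 1295 FPKM in wild-type replicate 1 against 690 to 934 FPKM in the other 7. The Amy2a5 loci with all values did not share this pattern, since wild-type replicate 1 was there the lowest wild-type library. Between knockout and wild type the log2 difference was 0.15 for Amy1 (95% interval -0.27 to 0.57, limma adjusted p = 0.78) and 0.00086 for Amy2b (adjusted p = 0.9995).

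RNA of other Amy1-expressing tissues was measured beside this. All 7 salivary gland markers were below 1 FPKM in every library and summed to 0.226 to 0.400 FPKM in knockouts, 0.172 to 0.446 in heterozygotes and 0.185 to 0.479 in wild types. The 7 liver markers summed to 303 to 446 FPKM in knockouts, 282 to 461 in heterozygotes and 389 to 562 in wild types. Most of each sum was Ttr, which islets also express, at 260 to 410 FPKM in knockouts, 246 to 426 in heterozygotes and 352 to 490 in wild types. Alb, the defining hepatocyte gene, was at 1.68, 3.17 and 5.04 FPKM in knockouts, at 2.88, 2.40 and 4.35 FPKM in heterozygotes and at 3.41, 36.4 and 1.95 FPKM in wild type. It stood out in wild-type replicate 2, the library lowest at Amy1.

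Across the members, knockout replicate 2 most often had the highest level. Of the 7 profiles with an estimate in all 9 libraries (5 genes and the complete loci of Amy2a5 and Amy2a2), 6 were highest there, the exception being Pnliprp2. The Amy2a5 and Amy2a2 loci overlap and share reads, and Amy1 may share some, so these profiles are not independent. The share of all genes highest in knockout replicate 2 was not counted. Heterozygote replicate 1 was the lowest library for 4 of the 8 genes: Amy2a2, Amy2a5, Pnliprp1 and Pnliprp2. Knockout replicate 2 also had the largest protease sum (33893 FPKM), the smallest sum of 9 mesenchyme markers (1176 FPKM, against 1319 to 1955 in the others) and the smallest sum of 6 endothelial markers (122 FPKM, against 139 to 178). None of these marker genes was below 1 FPKM throughout. The part of these differences in the enzyme levels was not tested.

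**Figure D3:**
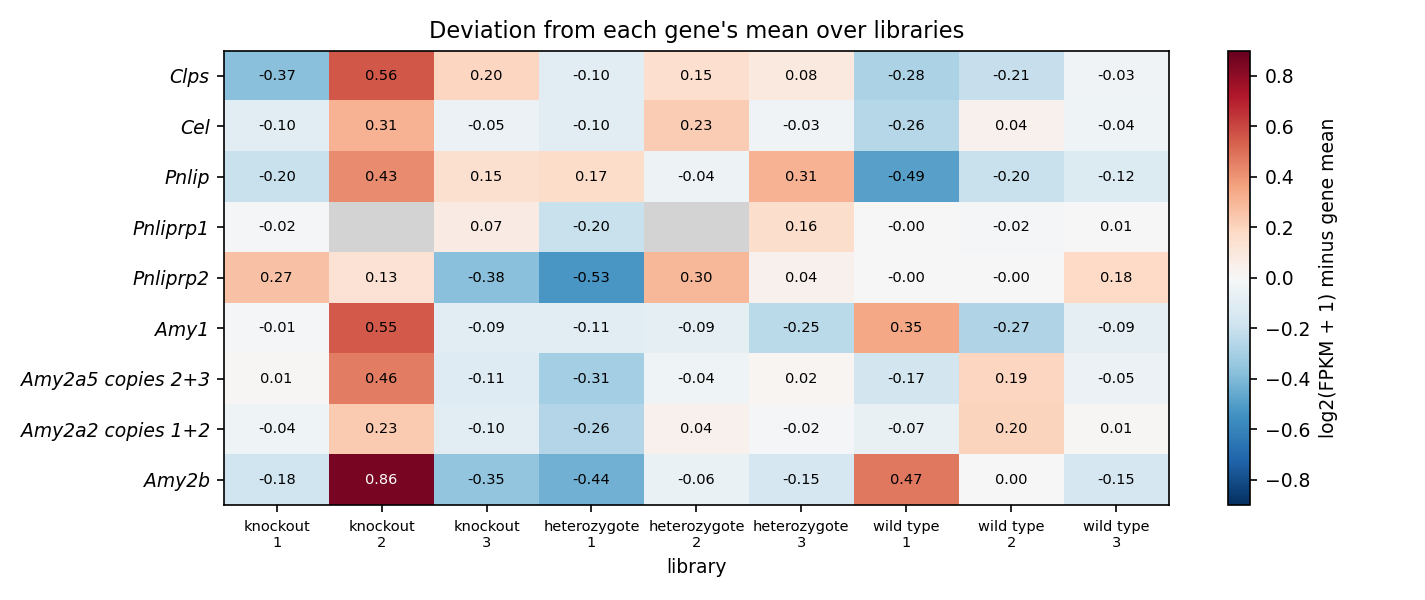
Deviation of each library from the gene's mean over libraries in log2(FPKM + 1), with the value printed in each cell (columns: knockout, heterozygote and wild-type libraries by replicate; grey: no estimate). Amy2a5 and Amy2a2 are drawn on the loci with an estimate in all libraries, and Amy2b is shown for comparison with Amy1. The column of knockout replicate 2 is above the mean in every row with an estimate, up to 0.86 at Amy2b.

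No member reached a range of 1 on the log2(FPKM + 1) scale over its libraries with an estimate, so no gene was named for a like profile. The widest were Clps at 0.93 and Pnlip at 0.92. In FPKM, the highest library was 1.91 times the lowest for Clps and 3.30 times for Pnlip. The added 1 narrows the range of a gene as low as Pnlip. The ranges of Pnliprp1, Amy2a5 and Amy2a2 leave out missing high values. Within genotypes the members were nevertheless more variable than most genes. Their residual SD was 0.13 to 0.32 on the log2 scale, against a median of 0.11 over the 13309 genes tested, and 60.8% to 93.9% of genes had a smaller SD than a given member. Pnliprp2 had the largest SD. The smallest, those of Pnliprp1 and Amy2a2, leave out the libraries whose high values are missing.

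The comparison of knockout with wild type, which asks about homozygous loss of Blinc1, left all 8 genes within the spread of the libraries. By limma 0 of 8 members passed, as did 0 of all genes tested (0% higher and 0% lower), with 0 members and 1117 genes (8.39%, and 2.6% in the higher direction) at an unadjusted p under 0.05. In 5 of the 8 the knockout mean was higher, where 41.5% of all genes were higher, and the median log2 difference was 0.09 over the members and -0.03 over all genes. Knockout replicate 2 is left out of the values of Pnliprp1, Amy2a5 and Amy2a2. No member had knockout and wild-type libraries without overlap, which 4.55% of genes had in the higher and 6.63% in the lower direction. The 95% intervals of the 8 differences ran from -0.53 at the lowest to 0.80 at the highest bound.

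Heterozygotes against wild type, which asks about loss of 1 allele, gave the same count. By limma 0 members and 0 genes (0%) passed, with 1 member, Pnlip, and 521 genes (3.91%, and 1.34% in the higher direction) at an unadjusted p under 0.05. Pnlip was also the member whose groups did not overlap, all heterozygotes being higher, as for 3.54% of genes, while 0 members and 7.05% of genes had every heterozygote lower. Means were higher in heterozygotes for 3 of 8 members, Pnlip, Cel (0.12) and Clps (0.22), against 42.9% of genes. The other 5 had log2 differences of -0.14 to -0.02, among them Pnliprp1, which leaves out heterozygote replicate 2. The comparisons of knockouts and of heterozygotes with wild type share the wild-type libraries.

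Knockouts against heterozygotes had 0 members and 0 genes (0%) past the limma threshold, with 0 members and 296 genes (2.22%, and 1.25% in the higher direction) at an unadjusted p under 0.05. No member had groups without overlap, against 3.48% of genes higher and 2.43% lower. The mean was higher in knockouts for 7 of 8 members, against 44.7% of genes, with a median log2 difference of 0.04. Knockout replicate 2 is again left out of Pnliprp1, Amy2a5 and Amy2a2, and heterozygote replicate 2 of Pnliprp1. The largest difference was that of Amy1, at 0.29 (95% interval -0.13 to 0.72, limma adjusted p = 0.9998), and the exception was Pnlip at -0.02.

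**Figure D4:**
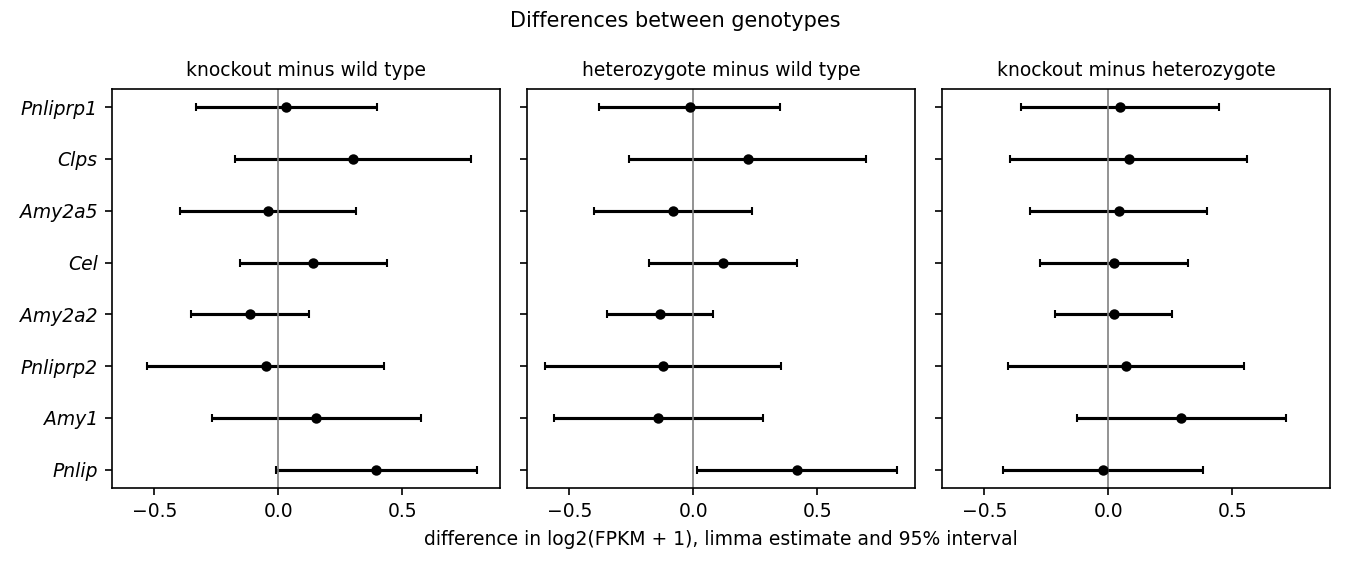
limma estimates of the difference in log2(FPKM + 1) with 95% intervals for the 8 genes in knockout minus wild type, heterozygote minus wild type and knockout minus heterozygote. The interval includes 0 for each gene in each comparison except Pnlip in heterozygote minus wild type (0.01 to 0.82), whose adjusted p was 0.94.

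Other digestive genes give the setting. Of the 17 listed protease genes 15 were tested, with 0 called by limma. Of those 15, 13 had a higher mean in knockouts than in wild type (median log2 difference 0.29), against 41.5% of all genes. Cpa1, a carboxypeptidase, averaged 9415 ± 2099 FPKM in knockouts and 8243 ± 353 FPKM in wild type (SD, n = 3 each). Ctrb1 was not tested because knockout replicates 2 and 3 and heterozygote replicates 2 and 3 had no estimate, the same missing high values as above. All 8 listed acinar transcription factors had higher means in knockouts (median 0.22, 0 called). By limma, 4 of these 8 were higher at an unadjusted p under 0.05, against 2.6% of all genes in that direction. Heterozygote means were higher than wild type for all 8 too (median 0.17), 1 of them at a limma unadjusted p under 0.05. The 8 factors summed to 772 FPKM in wild-type replicate 2, against 884 and 938 FPKM in wild-type replicates 1 and 3. Knockouts had sums of 871 to 1116 FPKM, so part of the difference from wild type rests on 1 low wild-type library. Of 12 genes of the secretory granule and endoplasmic reticulum, 11 had higher means (median 0.08, 0 called). Xbp1, a factor of secretory cells, averaged 455 ± 35.9 FPKM in knockouts and 398 ± 39.5 FPKM in wild type (SD, n = 3 each). Ptf1a, the core factor of the PTF1 complex, averaged 102 ± 16.3 FPKM in knockouts and 75.7 ± 8.92 FPKM in wild type. The members' own median in knockout minus wild type was 0.09. It leaves out knockout replicate 2 for Pnliprp1, Amy2a5 and Amy2a2, which the tested genes of the other lists keep. On the loci with all values, the difference was 0.13 for Amy2a5 and -0.02 for Amy2a2, so the medians are not on the same libraries. These lists were not compared by a test.

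In the list of other lipases and lipid enzymes 12 of 16 were tested, 6 with a higher and 6 with a lower mean in knockouts (median -0.01, 0 called). The most abundant was Mgll, monoglyceride lipase, at 58.3 ± 2.29 FPKM in knockouts and 51.8 ± 3.84 FPKM in wild type (SD, n = 3 each). Lmf2, a factor related to lipase maturation, was at 37.9 ± 4.63 FPKM in knockouts and 39.7 ± 1.22 FPKM in wild type. Lipf, gastric lipase, and Lipi were listed at 0 in all 9 libraries. Of 7 other carbohydrate genes 3 were tested: Amy2b, Gaa, the lysosomal glucosidase, at 34.7 ± 9.07 FPKM in knockouts and 41.3 ± 4.17 FPKM in wild type, and Tmem27. The brush-border enzyme genes Mgam, Sis, Lct and Treh were below 1 FPKM in every library. Among 14 other acinar products 12 were tested, with 6 means higher and 6 lower in knockouts (median 0.00041, 0 called). The widest difference was that of Pla2g1b, pancreatic phospholipase A2, at 1.81, 162 and 129.7 FPKM in knockouts, 122, 8.29 and 5.66 FPKM in heterozygotes and 5.54, 2.35 and 3.09 FPKM in wild type, named here after its values were seen. Its 3 high libraries include knockout replicate 2, most often the highest for the members, and heterozygote replicate 1, the lowest for 4 of the 8.

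**Figure D5:**
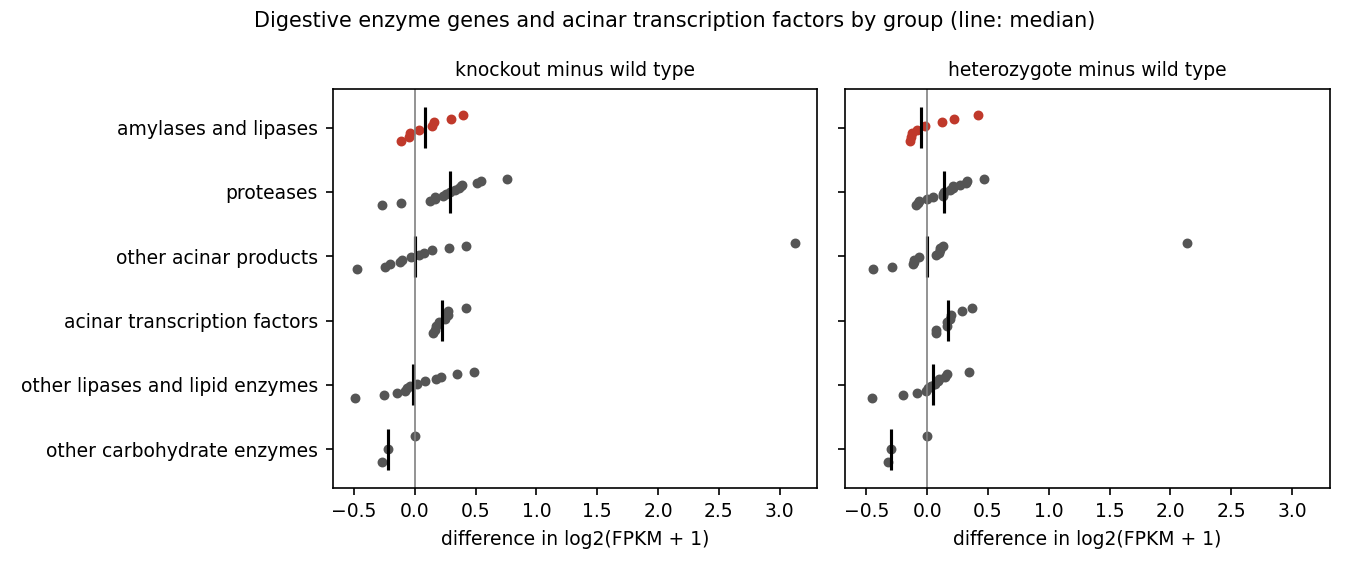
Differences in log2(FPKM + 1) of knockout minus wild type (left) and heterozygote minus wild type (right) for the 8 amylase and lipase genes (red) and other listed genes (grey), 1 point per tested gene, with the group median as a black line. The members' medians are 0.09 and -0.05, beside 0.29 and 0.14 for the proteases, and Pla2g1b is the point at 3.13 and 2.14. Pnliprp1, Amy2a5 and Amy2a2 leave out knockout replicate 2, and Pnliprp1 also heterozygote replicate 2, whereas the grey points keep all libraries.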

How the data were processed

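The deposited FPKM values, with lower and upper confidence bounds in FPKM and a status word per locus, came as 1 table per library, per the file headers. Per the series' design text, alignment was to mm9 by TopHat 2.0.4, with 4 mismatches and up to 10 hits allowed. Further tools, CASAVA 1.8.2, Cufflinks and DESeq, are named in the submitters' processing notes. Neither annotation nor strand setting is given in the sources used here.

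Loci of a symbol were summed, with a symbol missing in a library where any of its loci was marked HIDATA. Fragments were implied from the upper bound, taken as 2 counting errors above FPKM. Intervals that follow from the bounds cover counting error only. limma 3.58.1 in R 4.3.3 was fitted to log2(FPKM + 1) in all 9 libraries, with genotype as the only term, an intensity trend, two-sided tests and Benjamini-Hochberg adjustment at 0.05 over 13309 genes with at least 1 FPKM in 3 libraries and at least 2 values per genotype. The fit was tested on simulated data. The submitters' DESeq result was not analysed here. Replicate numbers share no stated source. The members and lists were chosen with earlier results of these data known. All members are named; of each list, up to 4 genes of highest mean level may be named. Motif windows came from RefSeq, GRCm38.p6.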

Additional observations from a re-analysis of the deposited data

How the results depend on the processing

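Over 13 alternatives per comparison (fewer where a gene had no value) and 9 fits that left out 1 library each, plus 1 added after seeing the data, 476 of 513 recomputed member differences kept their direction, and in all 513 the gene stayed on the same side of the limma threshold. The other 37 changed sign. With Amy2a5 on the loci with all values the knockout minus wild type difference was 0.13. Quantile normalization gave 0.0033 for Pnlip and -0.11 for Clps in knockout minus heterozygote. Array weights gave -0.081 for Amy1 in knockout minus wild type and 0.0090 for Pnliprp1 in heterozygote minus wild type. In knockout minus heterozygote they gave -0.017 for Amy2a5, -0.22 for Pnliprp2 and -0.037 for Cel. Sex as a covariate gave -0.077 for Pnliprp1 in knockout minus wild type, and in knockout minus heterozygote -0.034 for Pnliprp1, -0.041 for Pnliprp2 and -0.0084 for Clps. All 3 knockout libraries had the female pattern, so sex and genotype are partly confounded. The replicate block gave 0.024 for Amy2a5 in knockout minus wild type. Same-numbered libraries did not deviate together in every pair (r -0.19 to 0.29), so the numbers were not taken as pairs.

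Counts of genes called by limma, 0 without alternatives, were 5 in knockout against wild type with array weights, 1 there and 6 in heterozygote against wild type with only the 2 groups compared, and 1 in heterozygote against wild type with the replicate block. Without single libraries they were 0 to 1, 0 to 7 and 0 to 4 in knockout against wild type, heterozygote against wild type and knockout against heterozygote, with the 7 and the 4 both without knockout replicate 1. No member was among any of them. The causes were not tested.

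Leaving out 1 library at a time, the knockout minus wild type differences that changed sign ranged from -0.047 to 0.33 for Amy1, -0.12 to 0.061 for Amy2a5, -0.014 to 0.078 for Pnliprp1 and -0.18 to 0.14 for Pnliprp2. The heterozygote minus wild type differences that changed sign ranged from -0.27 to 0.033 for Amy1, -0.16 to 0.019 for Amy2a5, -0.19 to 0.16 for Pnliprp1 and -0.30 to 0.11 for Pnliprp2. The knockout minus heterozygote differences that changed sign ranged from -0.068 to 0.084 for Amy2a2, -0.045 to 0.10 for Amy2a5, -0.17 to 0.14 for Pnlip, -0.13 to 0.23 for Pnliprp1, -0.16 to 0.26 for Pnliprp2, -0.10 to 0.12 for Cel and -0.14 to 0.33 for Clps.

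Fits with 5 FPKM as the minimum hold no Pnlip, and voom on implied fragments (at least 10 in 3 libraries) holds none of the 3 genes with missing values. Pnlip rests on the fewest implied fragments of the members, 20.0 to 70.0 per library. With 3 libraries against 3, an exact test cannot give a permutation p below 0.1.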
